A study of Mus musculus with 15 samples.

Results

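The genes described here are the matrix metalloproteases (MMPs), the ADAMTS proteases and the tissue inhibitors of metalloproteases (TIMPs) of the mouse, measured in cultured lung cells. They were found by symbol: every gene whose name on the array is Mmp, Adamts or Timp followed by its number, which gave 46 genes of the 22273 named genes with a complete value. They comprise 23 Mmp, 19 Adamts and 4 Timp genes and lie on 66 of the array's 55681 probes that are not controls. The study asked whether β-aminopropionitrile (BAPN), an irreversible inhibitor of the lysyl oxidases that crosslink collagen and elastin, alters gene expression in primary lung cells. RNA was hybridised to Agilent one-colour microarrays, 1 sample per array. The 4 groups were primary murine lung fibroblasts with vehicle (1x PBS, 4 arrays), the same kind of fibroblasts with 1 mM BAPN (3 arrays, numbered 1, 2 and 4), primary murine alveolar type II (ATII) cells with vehicle (4 arrays) and ATII cells with 1 mM BAPN (4 arrays). BAPN or vehicle was given for 24 h in all groups. The fibroblasts were used after 3 or more passages and a 24 h starvation, and the ATII cells after 3 days of air-liquid interface culture that gave a monolayer, so differences of cell type and of culture cannot be told apart. Number 3 of the fibroblast BAPN samples was not analysed here, and the ATII BAPN array labelled as a replacement, which carries no number, is called 5. Whether the replicates were separate animals or cultures is not stated in the labels, and the p-values therefore refer to the spread of these samples alone, which may be technical.

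MMPs are zinc-dependent endopeptidases, mostly secreted as inactive proenzymes, that cut collagens, elastin, other matrix proteins and signalling molecules. ADAMTS proteases are secreted relatives with thrombospondin repeats, some of which trim procollagens while others cut proteoglycans such as aggrecan and versican, and TIMPs bind the active site of MMPs and of some ADAM and ADAMTS enzymes and block it. In the lung these enzymes take part in matrix turnover, in repair and in fibrosis, and many of them are made by fibroblasts, epithelial cells and macrophages in differing proportions.

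Of the 46 genes, 10 MMP genes lie side by side on chromosome 9, and these include 7 of the 11 MMPs that were lower in ATII cells than in fibroblasts with vehicle. Promoters are shown for these 7. RefSeq promoters of build GRCm38.p6, 300 bases each from 250 before to 50 after the annotated start, were found for 32 of the 46 genes (35 promoters, 12 of them of the cluster). The AP-1 motif TGANTCA, searched on both strands, was present in 8 of the 12 cluster promoters, in 0 of the 23 other promoters and in 7.81% of all 32851 mouse promoters in the table. The TATA motif TATAAA, counted on either strand, was present in 9 of 12, in 2 of 23 and in 13.6% of all promoters. The GC box GGGCGG was present in 0 of 12, in 18 of 23 and in 35.7% of all promoters. The printed stretches are the 110 bases that precede the start, 5′ to 3′ on the gene's strand, with matches to TGANTCA and TATAAA in capitals. Mmp3 (chr9:7445712-7445821, plus strand), Mmp10 (chr9:7502232-7502341, plus strand), Mmp13 (chr9:7272404-7272513, plus strand), Mmp1a (chr9:7464031-7464140, plus strand) and Mmp1b (chr9:7388027-7388136, minus strand) hold both motifs. Mmp8 (chr9:7558319-7558428, plus strand) and Mmp27 (chr9:7571286-7571395, plus strand) were lower in ATII cells too and hold no match to TGANTCA in their 300 bases. The TATAAA match of Mmp8 lies on the opposite strand. It begins 3 bases before the start and runs past the printed stretch, so it is not in capitals.
Mmp3: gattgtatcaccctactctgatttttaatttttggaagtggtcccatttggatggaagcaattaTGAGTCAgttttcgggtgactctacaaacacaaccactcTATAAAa
Mmp10: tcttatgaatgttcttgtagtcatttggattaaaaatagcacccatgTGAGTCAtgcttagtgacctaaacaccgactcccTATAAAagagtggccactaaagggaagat
Mmp13: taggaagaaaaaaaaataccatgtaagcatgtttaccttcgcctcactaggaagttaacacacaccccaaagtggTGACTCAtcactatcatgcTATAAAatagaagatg
Mmp1a: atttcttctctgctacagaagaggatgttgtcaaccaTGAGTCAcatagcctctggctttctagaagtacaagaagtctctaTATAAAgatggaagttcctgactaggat
Mmp1b: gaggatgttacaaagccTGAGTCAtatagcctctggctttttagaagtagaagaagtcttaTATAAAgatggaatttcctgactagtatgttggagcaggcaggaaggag
Mmp8: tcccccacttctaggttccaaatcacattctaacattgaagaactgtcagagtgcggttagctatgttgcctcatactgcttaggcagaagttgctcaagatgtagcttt
Mmp27: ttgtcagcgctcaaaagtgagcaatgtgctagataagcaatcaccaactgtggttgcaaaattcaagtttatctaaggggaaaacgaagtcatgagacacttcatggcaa

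The AP-1 match began 35 bases before the start in Mmp13, 46 in Mmp3, 63 in Mmp10, 73 in Mmp1a and 93 in Mmp1b. Mmp7, Mmp12 and Mmp20, the other cluster genes with a match, hold TATAAA in their 300 bases as well, and they did not pass the test between the cell types (Mmp7, Mmp12) or were not well above background on any array (Mmp20). The PEA3 motif AGGAAG occurred in 8 of the 12 cluster promoters, in 8 of the 23 others and in 35.4% of all promoters. For the RUNX motif TGTGGT the counts were 4 of 12, 2 of 23 and 16.8%. The median GC content was 41.7% in the cluster promoters, 64.7% in the other promoters of these families and 52.7% over all promoters. A match is a description of the sequence, not a site shown to be bound.

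Levels are given as log2 of the processed spot intensity minus the array's 75th percentile, and a level of 0 is thus the array's 75th percentile. Of the 46 genes, 29 were well above background on all 15 arrays, 13 on some and 4 on none, namely Adamts19, Adamts20, Mmp20 and Mmp25. In each of the 4 groups, 7 of the genes had no array well above background. Of all spots that are not controls, 65.2% to 71.2% per array were well above background and 0 were saturated, and precision is limited by the number of arrays. A fold against a group without any array well above background is given as a lower bound, set against the lowest signal that was well above background on those arrays or the probe's own signal, whichever was higher. Such a bound concerns detection only. It takes no account of the spread between arrays or of another background correction, which can give smaller values.

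The labelled cell types were checked against marker genes. All 10 fibroblast markers were detected in the ATII cultures, where their summed level was 9.40 to 9.97 against 9.67 to 10.4 in the fibroblast cultures, and Col1a1 averaged 7.86 in ATII and 7.79 in fibroblast vehicle cultures. Of the ATII markers, Slc34a2 stayed below the background limit throughout, whereas Sftpc was at least 78.2-fold and Nkx2-1 at least 12.8-fold higher in ATII cells, and 6 of 8 tested ATII markers and 5 of 5 epithelial markers were higher there. The summed level of the ATII markers differed little, at 5.52 to 5.67 in ATII and 5.02 to 5.44 in fibroblast cultures. Smooth muscle markers summed to 9.92 to 10.43 in ATII and 10.36 to 10.85 in fibroblast cultures. For alveolar type I markers the sums were 6.14 to 6.78 and 6.24 to 7.30. Macrophage and leukocyte markers had a summed level of 6.42 to 6.81 in fibroblast and 5.02 to 5.67 in ATII cultures, with 14 of 15 tested genes lower in ATII cells and 1, Cd14, higher. The mesothelial markers summed to -1.04 to 4.35 in fibroblast and 6.67 to 7.50 in ATII cultures. Of the 4 tested with vehicle, 1 was called higher in ATII cells and 3 were not called, with log2 differences from -0.62 to 5.55. The part of these cell populations in any difference between the cultures was not tested, and in bulk RNA fewer cells of a type and less RNA per cell cannot be told apart.

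The 2 fibroblast arrays numbered 2, one of each treatment, stood apart from the other 5. Their summed level of mesothelial markers was -1.04 and -1.0, against 2.54 to 4.35 on the other fibroblast arrays. Msln, a mesothelial surface protein, read -1.41 and -1.48 there and 1.29 to 2.88 on the others. The macrophage gene Tyrobp read 2.99 and 3.38 there and 1.65 to 2.21 on the others. The summed level of all macrophage and leukocyte markers was hardly apart, at 6.80 and 6.81 there and 6.42 to 6.76 on the others. Among the genes described here, Mmp3, Mmp8, Mmp10 and Mmp13 had their highest values in the series on these arrays, and Timp3 and Adamts5 had the lowest values of the fibroblast arrays. The results they touch most are therefore given with and without both arrays, an alternative chosen after seeing the data.

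**Figure D1:**
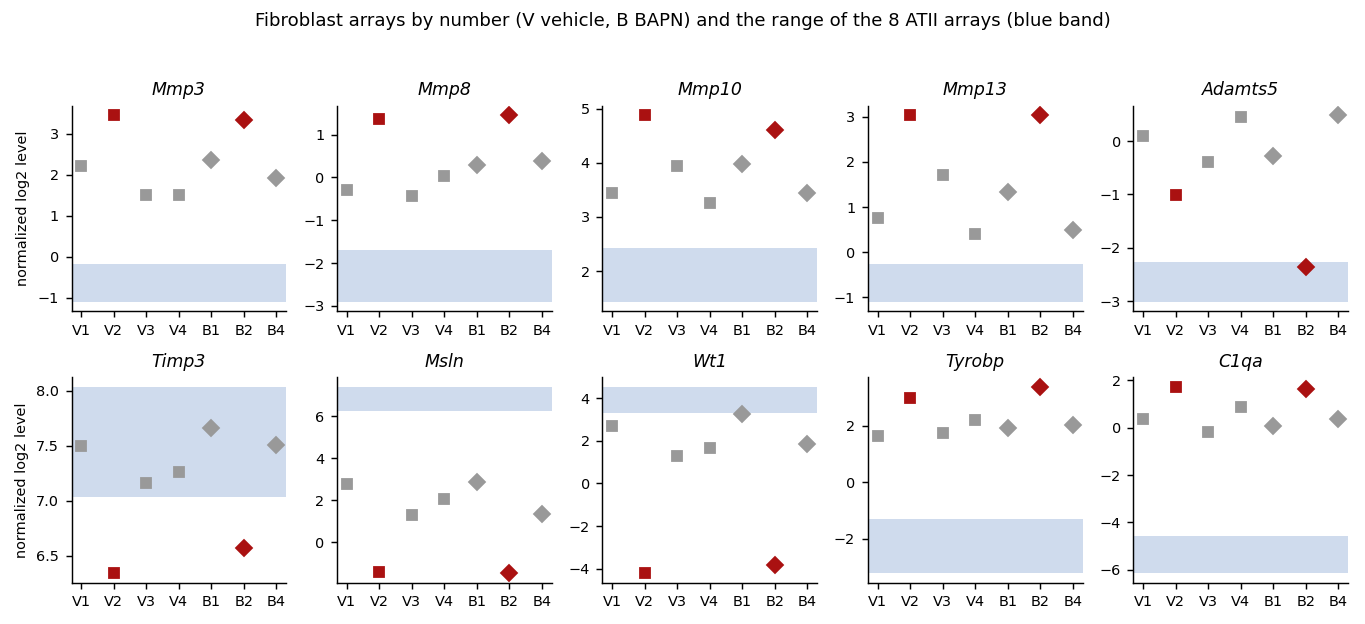
Normalised log2 level (vertical axis) of Mmp3, Mmp8, Mmp10, Mmp13, Adamts5, Timp3 and the marker genes Msln, Wt1, Tyrobp and C1qa on the 7 fibroblast arrays by array number, with the arrays numbered 2 in red and the blue band giving the range of the 8 ATII arrays. On the arrays numbered 2, Mmp3 reads 3.45 and 3.34 and Mmp10 4.88 and 4.60, above the other fibroblast arrays, while Timp3 reads 6.34 and 6.57, below them.

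Most calls in these families were between the cell types. With vehicle, 40 of the 46 genes were testable, and 9 were higher and 17 lower in ATII cells than in fibroblasts at an adjusted p below 0.05 (limma, Benjamini-Hochberg over all 32470 features tested). Over all features tested, 31.3% were called in this comparison, 14.5% higher and 16.9% lower, against 65% of the testable members. The median log2 difference was -0.59 over the members and -0.13 over all features. With the replicate number as a block, in a fit of only these 8 arrays, 24 of the 26 calls were kept, Mmp11 (adjusted p = 0.0771) and Mmp1a (adjusted p = 0.0546) were not called, and Adamts14 (log2 0.51, adjusted p = 0.0499) and Adamts17 (log2 -0.66, adjusted p = 0.0318) were. Within slide 1, where 2 arrays of each group lay, 21 of the 26 could be tested, all 21 had the same direction and 17 were called. Within slide 2 the counts were 22 tested, 22 in the same direction and 12 called. Without the 2 fibroblast arrays numbered 2, 22 of the 26 calls were kept, and Mmp1a, Mmp1b, Mmp11 and Mmp14 were lost. Among genes described below, the log2 differences without those arrays, with vehicle and with BAPN, were 1.37 and 1.76 for Mmp2, 2.38 and 2.47 for Adamts15, 5.37 and 6.04 for Adamts16, and -1.48 and -2.12 for Adamts9.

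**Figure D2:**
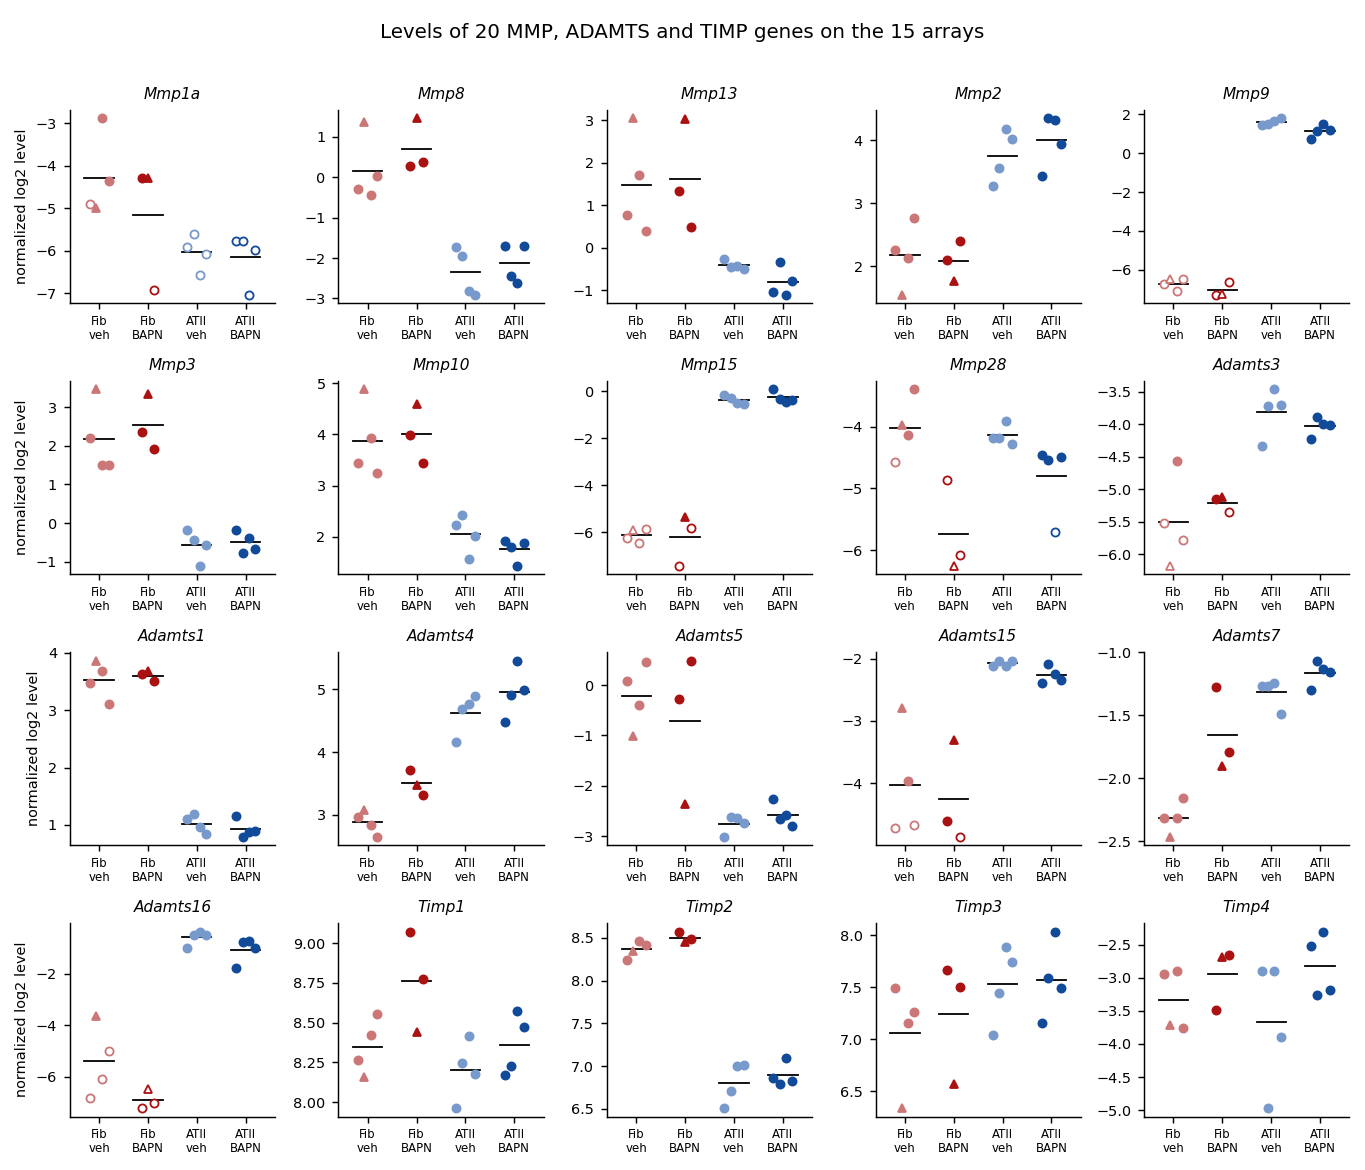
Normalised log2 level (axis) of 20 MMP, ADAMTS and TIMP genes on each of the 15 arrays by group, with bars at the group means, triangles for the fibroblast arrays numbered 2 and open symbols for values not well above background. Mmp9, Mmp15 and Adamts16 lie far higher on all ATII arrays, from 0.72 to 1.78, from -0.55 to 0.08 and from -1.77 to -0.36, than on the fibroblast arrays.

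The 2 gelatinases, enzymes that cut denatured collagen and basement membrane collagen, were both higher in ATII cells. Mmp9 (gelatinase B; probe at chr2:164780620-164780679, mm9) read -6.75, -6.48, -7.09 and -6.48 in fibroblasts with vehicle and -7.27, -7.23 and -6.61 with BAPN, and none of these values was well above background. In ATII cells Mmp9 read 1.46, 1.52, 1.64 and 1.78 with vehicle and 0.72, 1.15, 1.48 and 1.18 with BAPN. Every ATII array thus lay far above every fibroblast array. The difference was at least 106-fold with vehicle and at least 114-fold with BAPN (measured log2 differences of 8.30, SE 0.196, and 8.17, SE 0.211; limma adjusted p = 1.72e-11 and 3.84e-11). With another background correction (normexp with an offset of 50), the measured log2 differences of Mmp9 were 4.8 and 4.44, below these bounds.

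Mmp2 (gelatinase A; chr8:95376840-95376899, mm9) read 2.26, 1.55, 2.14 and 2.76 in fibroblasts with vehicle and 2.10, 1.77 and 2.40 with BAPN. Its ATII levels were 3.27, 3.56, 4.17 and 4.02 with vehicle and 3.43, 4.35, 4.33 and 3.94 with BAPN. All 8 ATII values were above all 7 fibroblast values. ATII cells were 2.99-fold higher with vehicle (log2 1.58, SE 0.285, adjusted p = 0.000758) and 3.78-fold higher with BAPN (log2 1.92, SE 0.308, adjusted p = 0.000349).

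The interstitial collagenases, which make the first cut in fibrillar collagen, were lower in ATII cells: 4 of 4 tested genes with vehicle and 3 of 3 with BAPN. Mmp13 (collagenase 3; chr9:7282762-7282821, mm9) read 0.76, 3.04, 1.72 and 0.39 in fibroblasts with vehicle and 1.32, 3.04 and 0.50 with BAPN. The ATII arrays gave -0.27, -0.46, -0.43 and -0.49 with vehicle and -1.04, -0.33, -1.10 and -0.78 with BAPN. The groups did not overlap, but the fibroblast values spread widely, with both arrays numbered 2 on top. Mmp13 was 3.72-fold lower in ATII cells with vehicle (log2 -1.89, SE 0.554, adjusted p = 0.0181) and 5.40-fold lower with BAPN (log2 -2.43, SE 0.599, adjusted p = 0.00744). Without both arrays numbered 2 the log2 differences were -1.37 (adjusted p = 0.0055) and -1.72 (adjusted p = 0.0037), and without the vehicle array numbered 2 alone the first was -1.37 with an adjusted p of 0.0501, which ended its call.

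Mmp8 (neutrophil collagenase; chr9:7568238-7568297, mm9) read -0.29, 1.38, -0.43 and 0.02 in fibroblasts with vehicle and 0.29, 1.46 and 0.38 with BAPN. ATII arrays read -1.72, -1.94, -2.81 and -2.90 with vehicle and -1.69, -2.45, -2.63 and -1.70 with BAPN. No ATII value reached the lowest fibroblast value. Mmp8 was 5.70-fold lower in ATII cells with vehicle (log2 -2.51, SE 0.428, adjusted p = 0.000484) and 7.09-fold lower with BAPN (log2 -2.83, SE 0.463, adjusted p = 0.000413). Without the arrays numbered 2 these log2 differences were -2.11 and -2.45 (adjusted p = 0.000508 and 0.000545). The macrophage and leukocyte markers were lower in the ATII cultures as well, by the summed levels given above, and their part in the difference of Mmp8 was not tested.

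Mmp1a and Mmp1b are the mouse relatives of human interstitial collagenase. Mmp1a (chr9:7476795-7476854, mm9) read -4.90, -4.98, -2.88 and -4.35 in fibroblasts with vehicle, of which the first was not well above background, and -4.28, -4.28 and -6.91 with BAPN, of which the last was not. On the ATII arrays it read -5.91, -5.60, -6.56 and -6.07 with vehicle and -5.76, -5.78, -7.03 and -5.97 with BAPN, and none was well above background. With vehicle it was, by the detection limit alone, at least 2.50-fold lower in ATII cells (measured log2 difference -1.75, SE 0.589, adjusted p = 0.0366). It was not testable with BAPN. The vehicle call was lost without ATII vehicle array 1, 3 or 4 (adjusted p = 0.0615, 0.0901 and 0.0718), and under quantile normalization (adjusted p = 0.095). With normexp the measured difference was -0.47, smaller than that bound. Without fibroblast vehicle array 2, 3 or 4 Mmp1a was not testable. Mmp1b was 2.73-fold lower with vehicle (log2 -1.45, SE 0.421, adjusted p = 0.0175) and 5.01-fold lower with BAPN (log2 -2.32, SE 0.455, adjusted p = 0.0016). Its vehicle call was lost without fibroblast vehicle array 2 (adjusted p = 0.0562), without ATII vehicle array 3 (adjusted p = 0.0529) and under quantile normalization (adjusted p = 0.0624), and with normexp the log2 differences were -0.60 and -0.63. Mmp1a and Mmp1b are related genes, and whether a probe of one takes up RNA of the other was not tested.

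The stromelysins, which cut proteoglycans, fibronectin and laminin and activate other proMMPs, were lower in ATII cells in 3 of 3 genes with vehicle and in 2 of 3 with BAPN. Mmp3 (stromelysin 1; chr9:7455751-7455810, mm9) read 2.21, 3.45, 1.51 and 1.5 in fibroblasts with vehicle and 2.35, 3.34 and 1.92 with BAPN. Levels in ATII cells were -0.17, -0.45, -1.10 and -0.58 with vehicle and -0.19, -0.76, -0.37 and -0.67 with BAPN. All ATII values were below 0 and all fibroblast values well above it. Mmp3 was 6.68-fold lower in ATII cells with vehicle (log2 -2.74, SE 0.408, adjusted p = 0.000163) and 8.21-fold lower with BAPN (log2 -3.04, SE 0.441, adjusted p = 0.000155). Without the arrays numbered 2 the log2 differences were -2.31 and -2.63 (adjusted p = 3.62e-05 and 4.64e-05).

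Mmp10 (stromelysin 2; chr9:7510011-7510070, mm9) read 3.44, 4.88, 3.94 and 3.26 in fibroblasts with vehicle and 3.98, 4.60 and 3.43 with BAPN. Its ATII levels were 2.23, 2.43, 1.57 and 2.01 with vehicle and 1.91, 1.79, 1.43 and 1.88 with BAPN. The fibroblast and ATII values did not overlap, and the arrays numbered 2 were again the highest. Mmp10 was 3.53-fold lower in ATII cells with vehicle (log2 -1.82, SE 0.335, adjusted p = 0.00088) and 4.76-fold lower with BAPN (log2 -2.25, SE 0.362, adjusted p = 0.000356). Without the arrays numbered 2 the log2 differences were -1.48 and -1.95 (adjusted p = 0.000659 and 0.00029). Mmp11, stromelysin 3, differed little: its log2 difference was -0.38 with vehicle (SE 0.132, adjusted p = 0.0433) and -0.33 with BAPN (SE 0.143, adjusted p = 0.105). A second Mmp11 probe passed the threshold in both treatments, at -0.59 with vehicle (adjusted p = 0.005) and -0.45 with BAPN (adjusted p = 0.0337). The vehicle call of Mmp11 was lost when fibroblast vehicle array 1, 2, 3 or 4, fibroblast BAPN array 2, ATII vehicle array 2, 3 or 4, or ATII BAPN array 3 or 4 was left out (adjusted p from 0.0506 to 0.119).

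Mmp7 (matrilysin) and Mmp12 (macrophage elastase), the remaining degradative MMPs of the chromosome 9 cluster that were testable, did not pass the test in either treatment. Mmp12 had a log2 difference of -0.81 with vehicle (SE 0.302, adjusted p = 0.0576) and -0.55 with BAPN (SE 0.326, adjusted p = 0.238). For Mmp7 the differences were -0.95 (SE 0.591, adjusted p = 0.264) and 0.97 (SE 0.639, adjusted p = 0.295).

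Over the chromosome 9 cluster as a whole (probes within chr9:7282762-7697700, mm9, in the order Mmp13, Mmp12, Mmp1b, Mmp3, Mmp1a, Mmp10, Mmp8, Mmp27, Mmp20, Mmp7), 7 of 9 tested genes were lower and 0 higher in ATII cells with vehicle, and 6 of 8 were lower and 0 higher with BAPN. The median log2 difference of the cluster was -1.75 with vehicle and -2.35 with BAPN. Of the 10 tested MMP genes elsewhere in the genome, 4 were lower and 4 higher with vehicle. Mmp27, a little-studied member, was lower by 1.33 on the log2 scale with vehicle and by 2.38 with BAPN (adjusted p = 0.0118 and 0.000401). With normexp these differences of Mmp27 were -0.49 and -0.51, and the mean over its 2 probes gave -1.14 with BAPN.

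**Figure D3:**
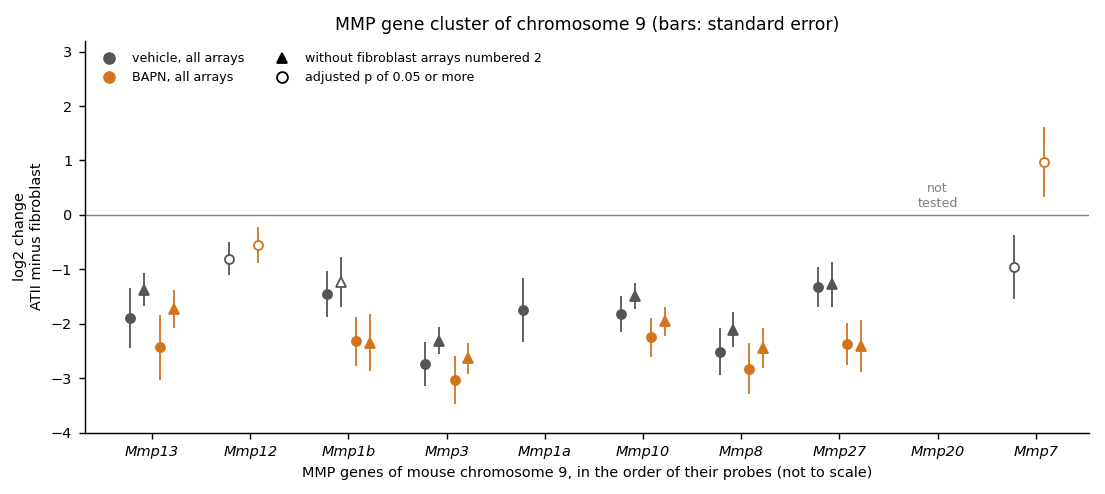
Log2 difference of ATII cells minus fibroblasts (vertical axis) for the MMP genes of the chromosome 9 cluster in probe order, with vehicle and with BAPN, circles for all arrays and triangles without the fibroblast arrays numbered 2. The values of Mmp3, Mmp8, Mmp10 and Mmp13 move toward 0 when those arrays are left out, from -2.74 to -2.31 for Mmp3 with vehicle, and stay below it.

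The membrane-type MMPs are anchored at the cell surface, and 2 of 4 tested genes were higher and 1 lower in ATII cells in both treatments. Mmp15 (MT2-MMP; chr8:97897703-97897762, mm9) read -6.25, -5.91, -6.47 and -5.87 in fibroblasts with vehicle and -7.44, -5.34 and -5.81 with BAPN, and only BAPN array 2 was well above background. The ATII arrays gave -0.14, -0.28, -0.49 and -0.55 with vehicle and 0.08, -0.31, -0.44 and -0.35 with BAPN. Every ATII array lay far above every fibroblast array. The difference was at least 27.2-fold with vehicle (measured log2 difference 5.76, SE 0.341, adjusted p = 3.44e-08). With BAPN the log2 difference was 5.94 (SE 0.368, adjusted p = 6.84e-08), with 1 of 3 fibroblast arrays well above background, and it was 5.32 without fibroblast BAPN array 1. With normexp the measured log2 differences of Mmp15 were 2.98 and 3.1.

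Mmp14 (MT1-MMP), a collagenase at the cell surface and activator of proMMP2, was 1.42-fold higher in ATII cells with vehicle (log2 0.50, SE 0.166, adjusted p = 0.0339) and 1.55-fold higher with BAPN (log2 0.63, SE 0.179, adjusted p = 0.0169). The vehicle call was lost without fibroblast vehicle array 1, 2 or 3 or ATII vehicle array 3 or 4 (adjusted p from 0.0559 to 0.101) and under quantile normalization (adjusted p = 0.0847). The BAPN call was lost without fibroblast BAPN array 1 (adjusted p = 0.0765). Without both arrays numbered 2 the adjusted p was 0.0923 with vehicle and 0.0554 with BAPN, and it was 0.0709 with BAPN in a fit of only the groups compared. Mmp17 (MT4-MMP) was lower in ATII cells, with log2 differences of -1.07 (SE 0.103, adjusted p = 3.41e-06) and -0.97 (SE 0.111, adjusted p = 2.01e-05). Mmp24 (MT5-MMP) was not called by the probe that stood for it (log2 0.26, adjusted p = 0.628), while its second probe gave 0.95 (SE 0.284, adjusted p = 0.0196).

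Among the other MMPs, Mmp19, Mmp23 and Mmp27 were lower in ATII cells in both treatments. Mmp19 had log2 differences of -0.77 and -1.20 (adjusted p = 0.00703 and 0.000618). Mmp23 had -0.87 and -0.75 (adjusted p = 0.00896 and 0.0324), and its BAPN call was lost without fibroblast BAPN array 1 or 4 or ATII BAPN array 1 or 5 (adjusted p from 0.0577 to 0.149). Mmp28 (epilysin), known from epithelia, had a log2 difference of -0.12 with vehicle (SE 0.347, adjusted p = 0.839).

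**Figure D4:**
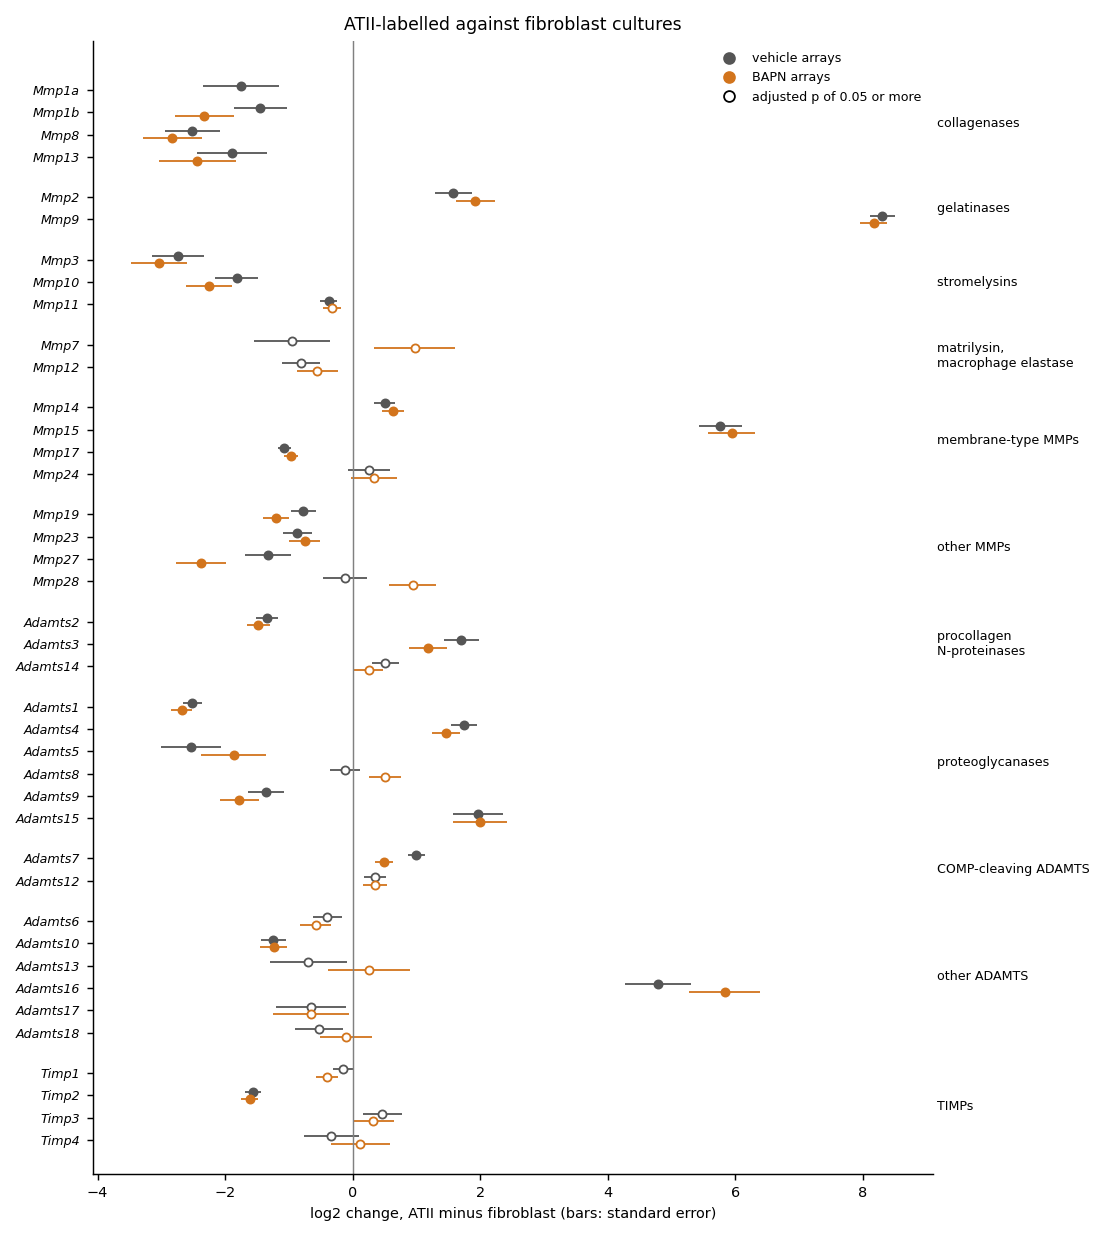
Log2 difference of ATII cells minus fibroblasts (horizontal axis) with its SE for the tested genes, grey for vehicle and orange for BAPN, with open symbols where the adjusted p was 0.05 or more. Mmp9 stands at 8.30 with vehicle and 8.17 with BAPN, and Mmp3, at -2.74 and -3.04, is at the other end.

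Among the ADAMTS genes 5 of 17 tested were higher and 5 lower in ATII cells in each treatment. The procollagen N-proteinases, which remove the amino-terminal propeptide of fibrillar procollagens, were split. Adamts2 read 6.19, 6.02, 5.91 and 6.29 in fibroblasts with vehicle and 4.34, 4.85, 4.82 and 5.02 in ATII cells with vehicle. These groups did not overlap, and Adamts2 was 2.54-fold lower in ATII cells (log2 -1.35, SE 0.172, adjusted p = 4.38e-05) and 2.79-fold lower with BAPN (log2 -1.48, SE 0.185, adjusted p = 4.42e-05). Adamts14 had log2 differences of 0.51 and 0.25 (adjusted p = 0.0785 and 0.457). A second Adamts14 probe gave -0.12 with vehicle (adjusted p = 0.712) and 0.49 with BAPN (adjusted p = 0.102).

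Adamts3 (chr5:90263957-90264016, mm9) read -5.52, -6.18, -4.56 and -5.78 in fibroblasts with vehicle and -5.16, -5.12 and -5.35 with BAPN, with 1 of 4 and 2 of 3 arrays well above background. In ATII cells Adamts3 read -4.34, -3.72, -3.46 and -3.70 with vehicle and -4.23, -3.88, -4.0 and -4.01 with BAPN. The highest fibroblast value, on vehicle array 3, lay just under the lowest ATII value. Adamts3 was 3.26-fold higher in ATII cells with vehicle (log2 1.70, SE 0.280, adjusted p = 0.000362) and 2.26-fold higher with BAPN (log2 1.18, SE 0.302, adjusted p = 0.0096). With normexp these log2 differences were both 0.44, and the mean over its 2 probes ended the BAPN call (log2 0.84, adjusted p = 0.05).

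The proteoglycanases, which cut aggrecan and versican, held genes in both directions: 2 of 6 tested were higher and 3 lower in ATII cells in each treatment. Adamts1 (chr16:85795044-85795103, mm9) read 3.48, 3.87, 3.69 and 3.1 in fibroblasts with vehicle and 3.63, 3.68 and 3.51 with BAPN. ATII arrays read 1.10, 1.19, 0.96 and 0.84 with vehicle and 1.15, 0.80, 0.87 and 0.90 with BAPN. Both cell types were tight and far apart. Adamts1 was 5.70-fold lower in ATII cells with vehicle (log2 -2.51, SE 0.153, adjusted p = 4.36e-08) and 6.39-fold lower with BAPN (log2 -2.68, SE 0.165, adjusted p = 6.37e-08).

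Adamts5 (aggrecanase 2; chr16:85899450-85899509, mm9) read 0.09, -1.0, -0.39 and 0.46 in fibroblasts with vehicle and -0.27, -2.35 and 0.49 with BAPN. Levels in ATII cells were -3.01, -2.62, -2.64 and -2.73 with vehicle and -2.27, -2.66, -2.58 and -2.79 with BAPN. The vehicle groups did not overlap, whereas fibroblast BAPN array 2 lay within the range of the ATII BAPN arrays. Adamts5 was 5.81-fold lower in ATII cells with vehicle (log2 -2.54, SE 0.473, adjusted p = 0.000967) and 3.64-fold lower with BAPN (log2 -1.86, SE 0.512, adjusted p = 0.014). Without both arrays numbered 2 the log2 differences were -2.80 and -2.68 (adjusted p = 4.08e-06 and 2.16e-05). The BAPN call was lost without fibroblast BAPN array 1 (adjusted p = 0.0534) or 4 (log2 -1.26, adjusted p = 0.0775), and in a fit of only the groups compared (adjusted p = 0.0713). Adamts1 and Adamts5 are neighbours on chromosome 16.

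Adamts4 (aggrecanase 1; chr1:173190709-173190768, mm9) differed the other way. It read 2.97, 3.07, 2.84 and 2.65 in fibroblasts with vehicle and 3.72, 3.48 and 3.31 with BAPN, and in ATII cells 4.16, 4.70, 4.77 and 4.89 with vehicle and 4.49, 4.91, 5.46 and 4.99 with BAPN. All ATII values were above all fibroblast values. Adamts4 was 3.35-fold higher in ATII cells with vehicle (log2 1.74, SE 0.204, adjusted p = 2.06e-05) and 2.75-fold higher with BAPN (log2 1.46, SE 0.221, adjusted p = 0.000218).

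Adamts15 (chr9:30707033-30707092, mm9), which also cuts versican, read -4.71, -2.79, -3.97 and -4.67 in fibroblasts with vehicle and -4.61, -3.31 and -4.86 with BAPN, with 2 of 4 and 2 of 3 arrays well above background. Its ATII levels were -2.12, -2.03, -2.11 and -2.03 with vehicle and -2.39, -2.08, -2.24 and -2.34 with BAPN. The fibroblast arrays numbered 2 were the closest to the ATII values but did not reach them. Adamts15 was 3.89-fold higher in ATII cells with vehicle (log2 1.96, SE 0.390, adjusted p = 0.00155) and 3.99-fold higher with BAPN (log2 1.99, SE 0.422, adjusted p = 0.00276), and with normexp the log2 differences were 0.88 and 1.0. Adamts9 was lower in ATII cells, with log2 differences of -1.35 (SE 0.282, adjusted p = 0.00214) and -1.78 (SE 0.304, adjusted p = 0.000586). A second Adamts9 probe gave -0.84 with vehicle (adjusted p = 0.0575).

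Adamts8 gave different results by probe. The probe with the higher mean (chr9:30751050-30751109, mm9) had a log2 difference of -0.12 with vehicle (SE 0.23, adjusted p = 0.749). The other probe (chr9:30770384-30770443, mm9) gave 4.41 (SE 0.502, adjusted p = 1.47e-05), with means of -5.69 in fibroblasts and -1.28 in ATII cells. The probes start 19334 bases apart, and which transcripts each detects was not tested. With vehicle, of the 11 genes of these families with several probes tested, 8 had the same call by each probe. The other 3, Adamts8, Adamts9 and Mmp24, did not. The sign differed between probes in 3 genes, Adamts8, Adamts12 and Adamts14.

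Adamts7, one of a pair of enzymes that cut cartilage oligomeric matrix protein (Comp), was higher in ATII cells. Adamts7 (chr9:90094878-90094937, mm9) read -2.31, -2.46, -2.32 and -2.16 in fibroblasts with vehicle and -1.27, -1.91 and -1.80 with BAPN. The ATII arrays gave -1.27, -1.27, -1.25 and -1.49 with vehicle and -1.30, -1.07, -1.14 and -1.16 with BAPN. The vehicle groups were clearly apart, and with BAPN fibroblast array 1 reached the lower end of the ATII range. Adamts7 was 1.99-fold higher in ATII cells with vehicle (log2 1.0, SE 0.134, adjusted p = 7.01e-05) and 1.41-fold higher with BAPN (log2 0.49, SE 0.145, adjusted p = 0.0201). The BAPN call was lost without fibroblast BAPN array 2 (adjusted p = 0.102) or 4 (adjusted p = 0.0839), without ATII BAPN array 3 (adjusted p = 0.0507), without both arrays numbered 2 (adjusted p = 0.108) and in a fit of only the groups compared (adjusted p = 0.0942). Adamts12, the other Comp-cutting enzyme, had log2 differences of 0.35 and 0.35 (adjusted p = 0.163 and 0.201). A second Adamts12 probe gave the other sign, -0.29 with vehicle (adjusted p = 0.327) and -0.68 with BAPN (adjusted p = 0.034).

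Among the other ADAMTS genes 1 of 6 tested was higher and 1 lower in ATII cells. Adamts16 (chr13:70867148-70867207, mm9) read -6.82, -3.63, -6.07 and -4.99 in fibroblasts with vehicle and -7.20, -6.49 and -7.01 with BAPN, and only vehicle array 2 was well above background. ATII arrays read -0.99, -0.49, -0.36 and -0.51 with vehicle and -1.77, -0.77, -0.72 and -1.01 with BAPN. The ATII arrays were all above the fibroblast arrays. The log2 difference with vehicle was 4.79 (SE 0.518, adjusted p = 9.86e-06), or 27.7-fold with 1 of 4 fibroblast arrays well above background, and with BAPN it was at least 24.8-fold (measured log2 difference 5.83, SE 0.560, adjusted p = 4.05e-06). These log2 differences were 2.43 and 2.28 with normexp, and 2.60 and 3.25 for the mean over its 2 probes. Adamts10, known to bind fibrillin microfibrils, was lower in ATII cells with log2 differences of -1.25 and -1.24 (adjusted p = 0.000283 and 0.00064), or -1.88 with vehicle for the mean over its 2 probes.

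Of the 4 TIMPs, 1 was called, in both treatments. Timp2 (chr11:118163146-118163205, mm9), an inhibitor that also takes part in the activation of proMMP2 by Mmp14, read 8.24, 8.34, 8.47 and 8.42 in fibroblasts with vehicle and 8.57, 8.45 and 8.49 with BAPN. Levels in ATII cells were 6.51, 6.71, 7.0 and 7.01 with vehicle and 6.85, 6.79, 7.10 and 6.82 with BAPN. Every ATII value was more than 1 log2 unit below every fibroblast value. Timp2 was 2.95-fold lower in ATII cells with vehicle (log2 -1.56, SE 0.123, adjusted p = 5.3e-07) and 3.06-fold lower with BAPN (log2 -1.61, SE 0.133, adjusted p = 9.58e-07).

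Timp1 (chrX:20451802-20451861, mm9), a broad MMP inhibitor, read 8.26, 8.16, 8.42 and 8.55 in fibroblasts with vehicle and 9.07, 8.44 and 8.77 with BAPN. Its ATII levels were 7.96, 8.24, 8.42 and 8.17 with vehicle and 8.17, 8.23, 8.57 and 8.47 with BAPN. The cell types overlapped. The log2 difference was -0.15 with vehicle (SE 0.156, 95% interval -0.49 to 0.19, adjusted p = 0.538) and -0.40 with BAPN (SE 0.168, 95% interval -0.76 to -0.04, adjusted p = 0.0928). Without the arrays numbered 2 the BAPN value was -0.56 with an adjusted p of 0.0324.

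Timp3 (chr10:85811696-85811755, mm9), a matrix-bound inhibitor that also blocks ADAM17 and aggrecanases, read 7.49, 6.34, 7.16 and 7.26 in fibroblasts with vehicle and 7.66, 6.57 and 7.50 with BAPN. The ATII arrays gave 7.04, 7.44, 7.89 and 7.74 with vehicle and 7.16, 7.58, 8.04 and 7.50 with BAPN. The ranges overlapped, with the arrays numbered 2 the lowest of all. The log2 difference was 0.46 with vehicle (SE 0.302, adjusted p = 0.291) and 0.32 with BAPN (SE 0.326, adjusted p = 0.521), and without the arrays numbered 2 it was 0.22 and -0.02 (adjusted p = 0.542 and 0.981). Timp4 (chr6:115196120-115196179, mm9), the TIMP with the narrowest tissue distribution, read -2.95, -3.71, -2.90 and -3.76 in fibroblasts with vehicle and -3.48, -2.68 and -2.65 with BAPN. ATII arrays read -2.90, -4.96, -2.90 and -3.90 with vehicle and -2.52, -3.27, -2.30 and -3.18 with BAPN. All groups overlapped, and the log2 difference was -0.33 with vehicle (SE 0.428, adjusted p = 0.625) and 0.12 with BAPN (SE 0.463, adjusted p = 0.894).

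The comparison of the BAPN arrays shares no array with that of the vehicle arrays, but both come from the same model and share its estimate of the spread. It had 39 testable members, of which 9 were higher and 15 lower in ATII cells, 61.5% of those tested, and over all 32268 features tested 29.3% were called, 13.4% higher and 15.9% lower. The 24 genes called with BAPN were all among the 26 called with vehicle and in the same direction, which is 92.3% of the vehicle list and 100% of the BAPN list. Of the vehicle list, Mmp11 was not called and Mmp1a was not testable with BAPN. Within slide 1 22 of the 24 were testable, all 22 had the same direction and 18 were called, and within slide 2, with 1 ATII and 2 fibroblast BAPN arrays, the counts were 17, 17 and 5. Without the arrays numbered 2, 22 of the 24 calls were kept, Adamts7 and Mmp14 were lost and Timp1 was added.

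The study's question was the response to BAPN. In fibroblasts 38 members were testable, and 1 was higher and 1 lower with BAPN, whereas 13.4% of all 32255 features tested were called (2.36% higher and 11.1% lower). At an unadjusted p below 0.05, 6 members passed, and for 20 of 38 the 95% interval of the change lay within 2-fold either way. The median log2 change was 0.13 over the members and 0.02 over all features. The count of calls was 1 without fibroblast vehicle array 2 or 4 or fibroblast BAPN array 2 or 4, 5 without ATII BAPN array 4, which enters only the shared spread, and 0 without both arrays numbered 2. The calls over all features moved too, from 4331 with all arrays. They were 1824 and 1997 without the vehicle arrays named, 1187 and 2002 without the fibroblast BAPN arrays. Without ATII BAPN array 4 they were 5555, and without both arrays numbered 2 they were 2. All 4 collagenases, 3 stromelysins, 4 TIMPs and 6 proteoglycanases tested were without a call. With every probe tested as itself, a second Adamts14 probe was called lower with BAPN (log2 -0.80, SE 0.215, adjusted p = 0.0304). The probe that stood for Adamts14 gave 0.21.

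Adamts7 was the gene called higher with BAPN in fibroblasts. Its values, given above, did not overlap between vehicle (-2.46 to -2.16) and BAPN (-1.91 to -1.27), and array 1 was the highest of the BAPN arrays. The log2 change was 0.66 (SE 0.145, 1.58-fold, adjusted p = 0.0146). On slide 1, with 2 vehicle arrays and 1 BAPN array, it was 1.04 (adjusted p = 0.0309), and on slide 2, with 2 of each, 0.46 (adjusted p = 0.153). Without the arrays numbered 2 it was 0.73 with an adjusted p of 0.079. With normexp it was 0.38 (adjusted p = 0.0733), and in a fit of only the fibroblast arrays the adjusted p was 0.0776.

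Mmp28 (chr11:83257262-83257321, mm9) was the gene called lower. It read -4.57, -3.97, -4.13 and -3.39 in fibroblasts with vehicle and -4.86, -6.25 and -6.08 with BAPN. The groups did not overlap, but the vehicle array numbered 1 and all 3 BAPN arrays were not well above background. By the detection limit alone the change was at least 2.80-fold (measured log2 change -1.72, SE 0.375, adjusted p = 0.0142). The call was lost without fibroblast BAPN array 2 (adjusted p = 0.0633) or 4 (adjusted p = 0.0524), and Mmp28 could not be tested without fibroblast vehicle array 2, 3 or 4, or on either slide alone. The mean of its 2 probes gave a log2 change of -0.51 (adjusted p = 0.203), and normexp gave -0.51 (adjusted p = 0.0426). Both are smaller than that bound. The second probe, too dim to be tested, went the other way in fibroblasts. It averaged -6.14 with vehicle (0 arrays well above background) and -5.44 with BAPN (2 arrays well above background). In ATII cells Mmp28 read -4.19, -4.19, -3.90 and -4.28 with vehicle and -4.46, -4.53, -5.71 and -4.48 with BAPN, a log2 change of -0.66 (SE 0.347, adjusted p = 0.463).

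The calls in fibroblasts varied with the position of the spot on the array. Over all features tested, 25.3% of those in columns above 82 of the 164 columns were called and 1.51% of the others. Dim features in the columns above 82 had a median log2 change of -0.66 and bright ones 0.17. Adamts7 lies in column 127 and Mmp28 in column 147, and the part of spot position in their calls was not tested beyond 2 corrections for it. Corrected for spot position, the log2 changes were 0.89 for Adamts7 (adjusted p = 0.0107) and -1.58 for Mmp28 (adjusted p = 0.014). Corrected for position and brightness, an alternative chosen after seeing the data, they were 0.92 (adjusted p = 0.0076) and -1.07 (adjusted p = 0.0138).

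The other members with an unadjusted p below 0.05 in fibroblasts were Adamts4, Adamts8, Mmp17 and Timp1. Adamts4 read 2.65 to 3.07 on the vehicle arrays and 3.31 to 3.72 on the BAPN arrays, without overlap, a log2 change of 0.62 that missed the threshold (SE 0.221, adjusted p = 0.0832). The change of Timp1 was 0.41 (SE 0.168, adjusted p = 0.13) with overlapping values. The proteases that differed most between the cell types had small or imprecise changes with BAPN in fibroblasts. The change of Mmp3 was 0.37 (95% interval -0.58 to 1.32), that of Mmp13 0.14 (-1.15 to 1.43) and that of Mmp10 0.13 (-0.65 to 0.91). For Mmp2 it was -0.09 (-0.75 to 0.58), for Adamts1 0.07 (-0.28 to 0.43) and for Timp2 0.14 (-0.15 to 0.42), so that for these 3 a change of 2-fold lay outside the interval.

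In ATII cells 39 members were testable and 0 were called with BAPN by limma, as were 0% of all 32045 features tested, while 3335 features and 2 members had an unadjusted p below 0.05. These members were Mmp9, with a log2 change of -0.47 (SE 0.195, 95% interval -0.89 to -0.05, adjusted p = 0.463) and overlapping values, and Adamts18, with 0.87 (adjusted p = 0.463). For 24 of 39 members the 95% interval lay within 2-fold either way. The estimated log2 changes were 0.16 for Timp1 (95% interval -0.18 to 0.50), 0.09 for Timp2 (-0.18 to 0.35), -0.09 for Adamts1 (-0.42 to 0.24) and 0.25 for Mmp2 (-0.36 to 0.87). The interval of Timp4 was -0.08 to 1.77 around a change of 0.85, and a change of 2-fold lay inside it.

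The difference between the BAPN effects, ATII minus fibroblasts, was tested for 41 members. By limma 0 were called, as were 0% of all 34287 features tested, and 4723 features and 2 members had an unadjusted p below 0.05. Adamts7 had a difference of -0.50 (SE 0.199, adjusted p = 0.294), and Mmp7 of 1.93. The difference of Mmp28 was 1.06 (SE 0.513, adjusted p = 0.382). The responses of Adamts7 and Mmp28, called in fibroblasts only, were thus not shown to differ between the cell types.

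**Figure D5:**
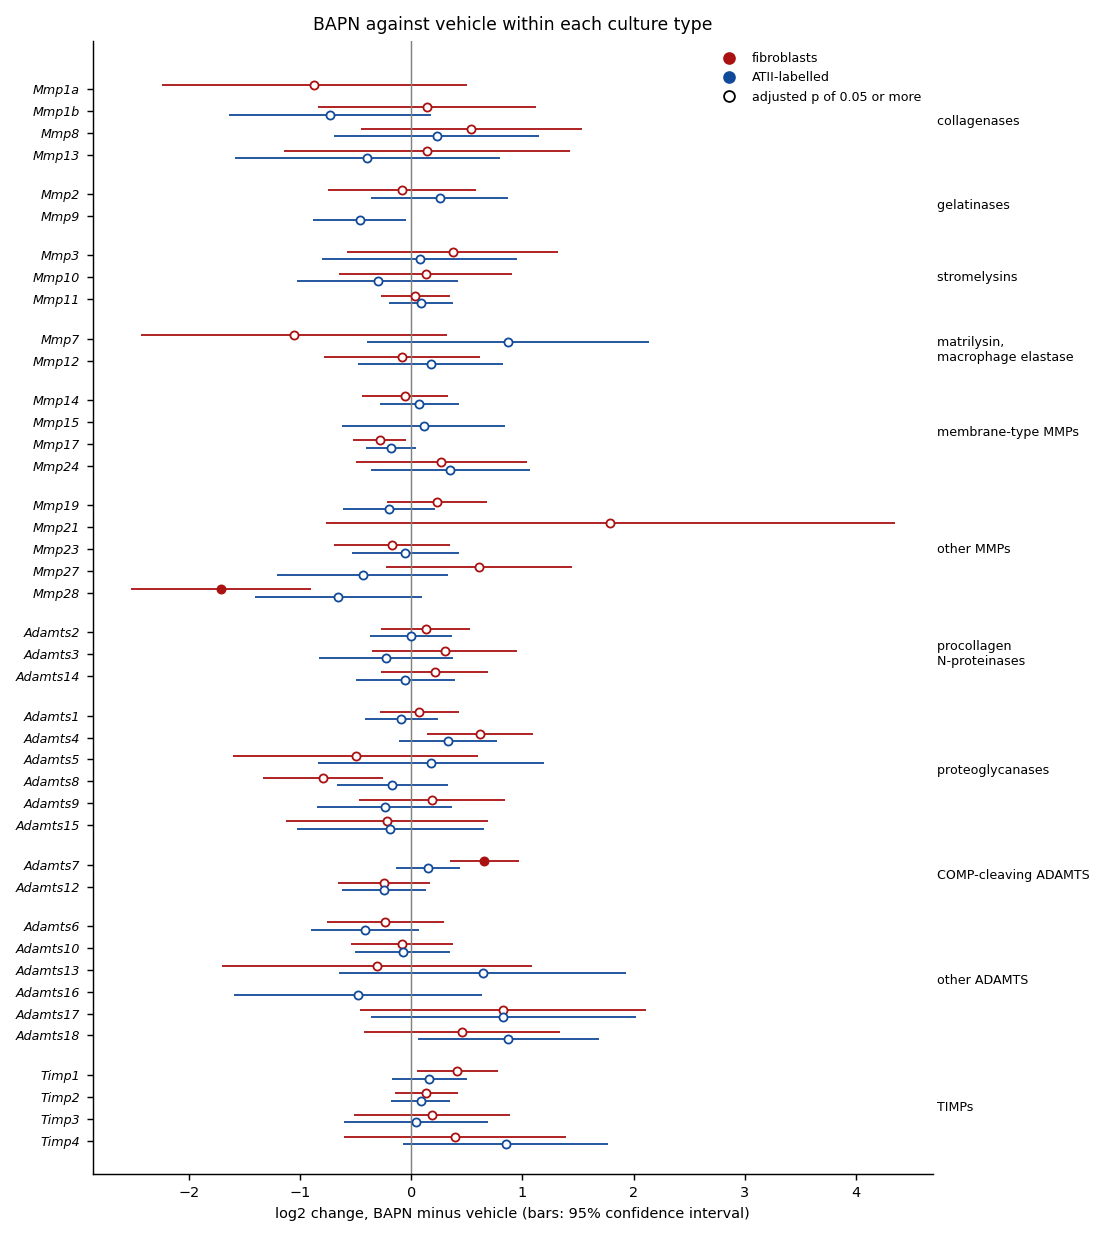
Log2 change with BAPN against vehicle (horizontal axis) with its 95% confidence interval for the tested genes, red for fibroblasts and blue for ATII cells. The fibroblast intervals of Adamts7 (0.66), Mmp28 (-1.72), Adamts4, Adamts8, Mmp17 and Timp1 are clear of 0, as are the ATII intervals of Mmp9 and Adamts18. Of these only Adamts7 and Mmp28 were called, in fibroblasts. The ATII intervals of Timp1, Timp2 and Adamts1 are narrow and include 0.

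Genes that act with these families were counted from lists of their own, with vehicle. For each of these lists, the share called over all features tested was 31.3%, 14.5% higher and 16.9% lower. Of 18 tested genes that activate or restrain MMPs, 5 were higher and 5 lower in ATII cells. St14 (matriptase, a membrane serine protease of epithelia) averaged -3.09 in fibroblasts and 3.13 in ATII cells, a log2 difference of 6.23 (SE 0.243, adjusted p = 9.8e-10), and Tfpi2, a serine protease inhibitor of the matrix, was 16-fold higher. Reck, a membrane-anchored inhibitor of MMPs, was 3.1-fold lower in ATII cells (log2 -1.63, SE 0.214, adjusted p = 5.63e-05), and Pcsk6, a proprotein convertase, 4.17-fold lower. Of 10 tested ADAM proteases 3 were higher and 4 lower. Among them Adam28 was at least 2.22-fold higher and Adam23, which lacks protease activity and binds integrins, 20.2-fold lower (log2 -4.33, SE 0.221, adjusted p = 8.61e-09). Of 7 ADAMTS-like proteins, which resemble ADAMTS enzymes without the protease domain, 2 were higher and 4 lower, with Adamtsl1 at 1.96 and Adamtsl5 at -2.56 on the log2 scale.

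Of 5 tested astacin proteases and procollagen C-proteinase enhancers 1 was higher and 1 lower in ATII cells: Bmp1, the procollagen C-proteinase, was 1.79-fold higher (log2 0.84, SE 0.147, adjusted p = 0.000578) and its enhancer Pcolce 3.02-fold lower (log2 -1.59, SE 0.152, adjusted p = 3.16e-06). Of 13 tested substrates of MMPs and ADAMTS enzymes 2 were higher and 5 lower. The substrate Eln (elastin) was 5.41-fold higher (log2 2.43, SE 0.537, adjusted p = 0.0032) and Vcan (versican), which Adamts1, Adamts4, Adamts5 and Adamts15 cut, 2.55-fold higher (log2 1.35, SE 0.254, adjusted p = 0.001). Comp, the substrate of Adamts7 and Adamts12, was 3.82-fold lower (log2 -1.93, SE 0.221, adjusted p = 1.63e-05) and Dcn (decorin) 3.68-fold lower (log2 -1.88, SE 0.303, adjusted p = 0.000317). With BAPN, 1 ADAM gene was called higher in fibroblasts and 0 genes of these lists were called in ATII cells. Over all features tested, 13.4% were called with BAPN in fibroblasts, 2.36% higher, and 0% in ATII cells.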

How the data were processed

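The authors' scanner files hold, per the file headers, spot intensity values from Agilent Feature Extraction 10.7.3.1 on an array designed on mm9. The deposited table of the series gives log2 values, with a median of 5.96 in each column, and served as an alternative. Probes were named by accession or symbol through a RefSeq gene table (GRCm38.p6). Spots marked as outliers were dropped, replicate spots averaged, and the probe with the highest mean stood for a gene. Each log2 intensity was set relative to the 75th percentile of its array. A single limma 3.58.1 model (R 4.3.3, 11 residual degrees of freedom) covered the 15 arrays and gave 5 comparisons. Features had to be well above background in at least 3 arrays within a comparison. Two-sided p-values were Benjamini-Hochberg adjusted over all of them. Standard errors are the model's. The labels do not say what a replicate number marks. Deviations from the group mean of same-numbered vehicle arrays correlated between the cell types (0.23, 0.24, 0.31 and 0.33). Differently numbered arrays of the same slide gave 0.19 to 0.31, and arrays of different slides gave -0.34 to -0.16. The main model used no pairing in any comparison, and a fit with the number as a block is given as an alternative. Given in full were 20 genes: the TIMPs, every member called in a BAPN comparison, and the 15 largest vehicle cell type differences among called members without overlap. Statistics were tested on simulated data. Members and lists were chosen with earlier results of these data known.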

Additional observations from a re-analysis of the deposited data

Results flagged for a closer look

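In 60 sets of 4 arrays of one group, 3 values lay far from the other 3 of their set by Dixon's test at the 95% level, by which chance alone marks about 1 set in 20. Adamts7 read -1.49 on ATII vehicle array 4, against -1.27 to -1.25 on the others. Mmp1a read -7.03 on ATII BAPN array 4, against -5.97 to -5.76, all of them not well above background. Mmp28 read -5.71 on ATII BAPN array 4, where it was not well above background, against -4.53 to -4.46.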

How the results depend on the processing

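The number of members called varied as follows. For fibroblasts with BAPN (2 calls, 4331 features called) it was 5 with spot position corrected (4820 features). It was 1 with only the groups compared in the fit (2356 features) and 1 with the mean over a gene's probes (3898 features). Without the fibroblast arrays numbered 2, an alternative chosen after seeing the data, it was 0 (2 features). With single arrays left out it was 1 to 5. For ATII cells with BAPN (0 calls) it stayed 0 with any single array left out, as it did for the difference of the effects. Slide 2 alone, with 1 ATII BAPN array, is left out of this count. Between the cell types it was 12 on slide 2 alone with vehicle (26 calls; 21 to 27 with single arrays left out) and 5 with BAPN (24 calls; 21 to 26). Between vehicle and BAPN the array numbers were not taken as pairing, since same-numbered arrays correlated at -0.08, 0.10 and -0.04 in fibroblasts and at 0.23, -0.15 and -0.15 in ATII cells. Between the cell types with BAPN only 2 numbers are shared (0.16 and 0.23). With the replicate number as a block, in fits of only the groups compared, 0 members were called in fibroblasts with BAPN (Adamts7 adjusted p = 0.227, Mmp28 0.214; features called 4331 without the block and 0 with it), 0 in ATII cells, 26 between the cell types with vehicle and 15 with BAPN, all 15 among the 24. Signs turned in 2 uncalled genes. With vehicle, Timp4 (-0.33) was 0.0264 on slide 1 alone and -0.591 to 0.0978 with single arrays left out, positive without ATII vehicle array 2. With BAPN, Timp4 (0.12) was -0.036 with slide as a block and -0.150 to 0.271 with single arrays left out, negative without fibroblast array 1 or ATII array 4. Timp3 (0.32) was -0.252 on slide 1 alone, -0.0151 without the arrays numbered 2, and -0.0151 to 0.533 with single arrays left out, negative without fibroblast array 2. The causes were not tested. Over the 1175 alternatives of 40 gene results, 1118 kept direction and side of the threshold, 44 lost the call, 5 gained one and 8 turned sign. Quantile normalization moved the median of all features between the cell types with vehicle by 0.11, and all 26 called genes kept their sign.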
